A study of Mus with 21 samples.

Results

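The 10 genes described here belong to the interleukin 15 (IL-15) axis or mark T and natural killer (NK) cells, and their levels were followed in mouse skin wounds on day 4. They were chosen by symbol from a list that named a ligand (Il15), its receptor chains (Il15ra, Il2rb, Il2rg), parts of the T cell receptor complex (Cd3e, Cd3g), coreceptors (Cd8a, Cd4) and genes of cytotoxic cells (Nkg7, Gzmb), and all 10 were among the 18806 genes in the files. IL-15 is a cytokine that is held on the cell surface by IL-15 receptor alpha and handed to neighbouring cells, which receive it through the shared beta and common gamma chains. NK cells, memory CD8 T cells and the T cells of the mouse epidermis depend on it. Activated macrophages, dendritic cells and keratinocytes make it, and interferons are known to raise it. Il15 was on the list because the study names it from these same libraries, so its difference between 6.4/aFGF and 7.4/aFGF is not independent evidence.

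The wounds were full-thickness punches of 8 mm in the back skin of female WT C57BL/6 mice, 8 weeks old when bought. Each of 7 groups had 3 libraries, labelled as biological replicates. In 6 of the groups the wounds received a GelMA (methacrylated gelatin) hydrogel of pH 6.4, 7.4 or 8.4 loaded with acidic (aFGF) or basic fibroblast growth factor (bFGF), and they are written here as 6.4/aFGF to 8.4/bFGF. The control wounds had neither scaffold nor growth factor, so hydrogel and factor cannot be told apart in any comparison with them. Each mouse carried 2 such wounds, one on either side of the back, and the sources used here do not say whether one of them or both gave the library. The series' design text counts 21 mice for the sequencing, as many as there are libraries, but no label ties a library to a mouse. If libraries shared a mouse, the p-values would measure in part the spread within a mouse, and there would be fewer animals than libraries.

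Levels are given as CPM, counts relative to the library total after TMM scaling, and as FPKM, which also divides by gene length, wherever one gene is set beside another. Total counts were 34362558 to 37817833 per library, and Il2rg, the most abundant of the 10 per length, had 2608 to 8143 counts. Cd3e had 14 to 418 counts and Cd8a 16 to 283, so these low levels carry the largest counting error. By median FPKM over the 21 libraries the order was Il2rg (59.8), Il15ra (8.87), Gzmb (4.89), Nkg7 (4.68), Cd4 (4.60), Il2rb (4.26), Il15 (4.23), Cd3g (2.46), Cd3e (0.605) and Cd8a (0.306).

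Before any group was compared, 2 libraries stood apart for these genes. 7.4/aFGF replicate 1 was the highest of 21 for 8 of the 10 genes, while it was the highest for 11.5% of the 15811 genes that passed the filter on low counts. Control replicate 2 was second for 7 of the 10 and highest for Il15. The results that rest on these libraries are therefore given with and without them. In whole wound tissue, fewer cells of a type and less RNA per cell cannot be told apart.

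**Figure D1:**
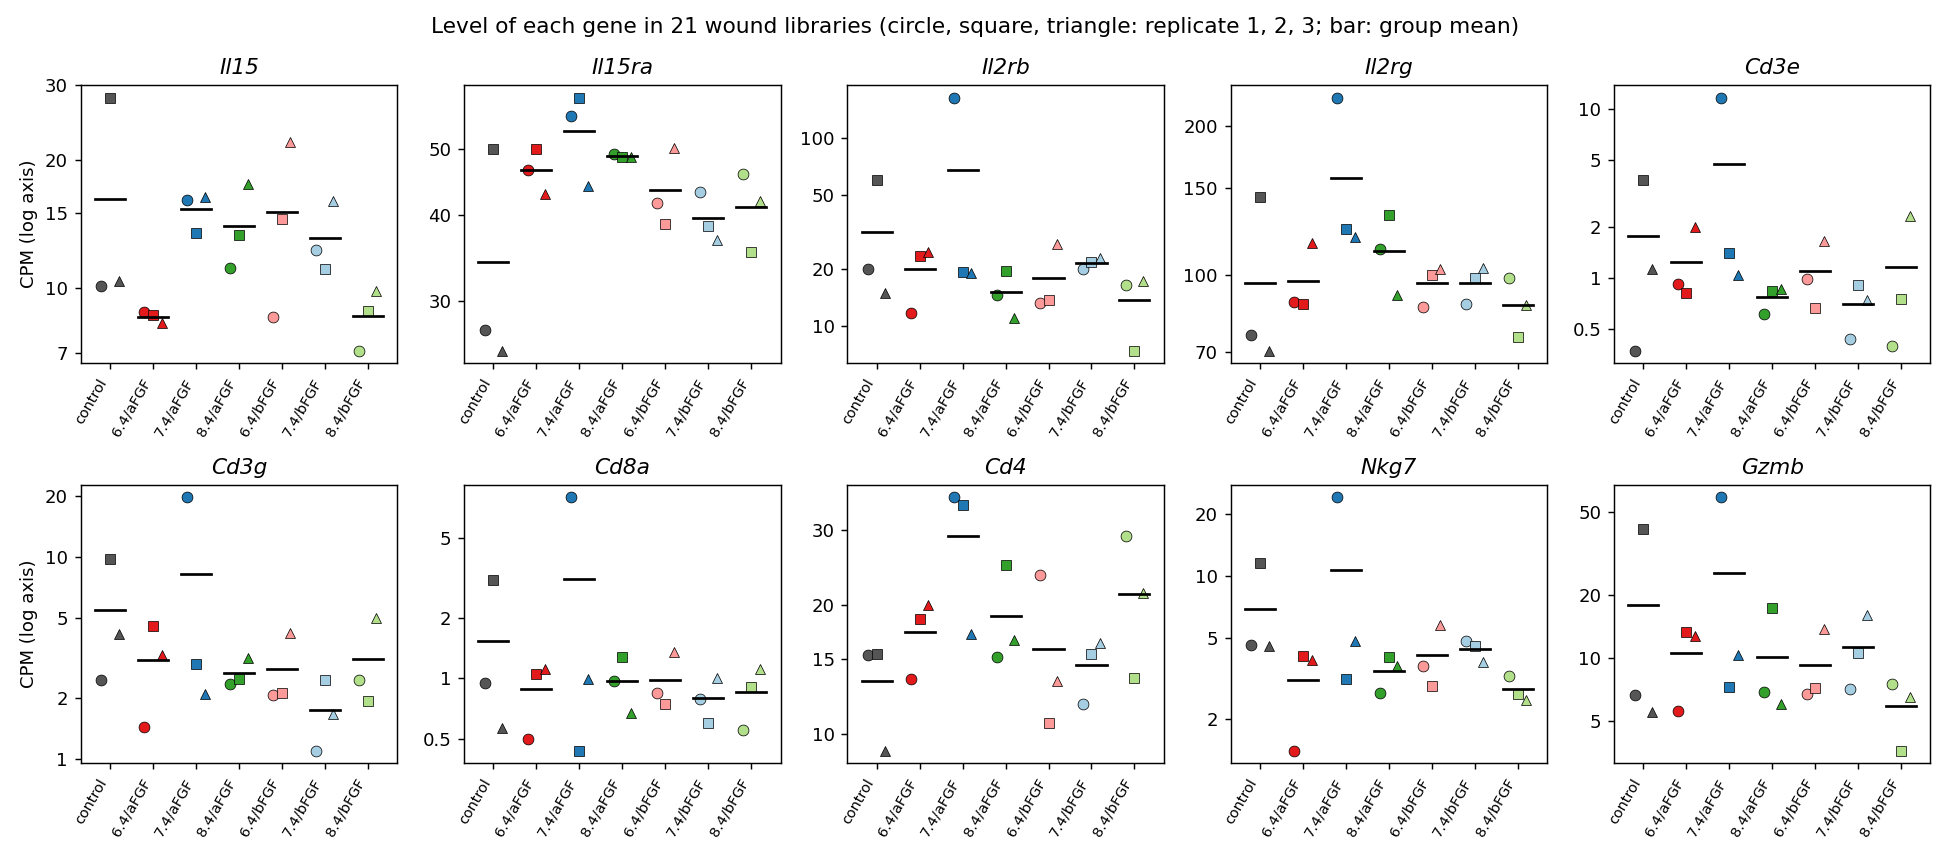
CPM (log axis) of each of the 10 genes in the 21 wound libraries by group, with a circle, square or triangle for replicate 1, 2 or 3 and a bar for the mean of 3 libraries. The circle of 7.4/aFGF is the highest point in 8 panels, and the square of the control is the highest for Il15.

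Il15, the ligand, ranged 3.96-fold over the libraries. In the control wounds it was at 10.1, 28.1 and 10.4 CPM. With aFGF, the 3 libraries at pH 6.4 read 8.74, 8.64 and 8.24 CPM, those at pH 7.4 read 16.1, 13.5 and 16.4 CPM, and those at pH 8.4 read 11.2, 13.3 and 17.6 CPM. The 6.4/aFGF libraries all lay below the 7.4/aFGF and 8.4/aFGF libraries. With bFGF the values were 8.55, 14.5 and 22.1 CPM at pH 6.4, 12.2, 11.1 and 16.0 CPM at pH 7.4, and 7.09, 8.78 and 9.80 CPM at pH 8.4. Here the pH 8.4 group was the low one, below every pH 7.4 library, and the pH 6.4 group spread across both.

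Ranked by mean, Il15 was 16.2 ± 10.3 CPM in control, 15.3 ± 1.61 in 7.4/aFGF, 15.1 ± 6.79 in 6.4/bFGF, 14.0 ± 3.26 in 8.4/aFGF, 13.1 ± 2.59 in 7.4/bFGF, 8.56 ± 1.37 in 8.4/bFGF and 8.54 ± 0.265 in 6.4/aFGF (SD, n = 3 each, as throughout). Of the 6 steps in this order, the one from 7.4/bFGF to 8.4/bFGF was the only one at which the libraries of neighbouring groups did not overlap. For the other 9 genes no neighbouring groups in the order of means were separated at all.

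Il15ra, the chain that presents the cytokine, was the steadiest of the 10, with a 2.35-fold range. Control libraries were at 27.2, 49.9 and 25.3 CPM, and control replicates 1 and 3 lay below all 18 hydrogel libraries, which ran from 35.3 to 59.4 CPM. The means were 34.2 ± 13.7 CPM in control, 46.5 ± 3.55 in 6.4/aFGF, 53.1 ± 8.01 in 7.4/aFGF, 48.8 ± 0.271 in 8.4/aFGF, 43.5 ± 5.89 in 6.4/bFGF, 39.5 ± 3.34 in 7.4/bFGF and 41.0 ± 5.39 in 8.4/bFGF. Receptor to ligand ratios within a library (Il15ra over Il15, in FPKM) ran from 0.938 in control replicate 2 to 3.42 in 8.4/bFGF replicate 1, with a median of 1.86.

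Il2rb, the signalling chain shared by IL-2 and IL-15 that marks NK cells and activated T cells, ranged 22.4-fold. The 7.4/aFGF libraries were at 165, 19.5 and 19.1 CPM and the control libraries at 20.2, 60.1 and 15.0 CPM, so in both groups 1 library carried the mean. Group means were 67.8 ± 84.1 CPM in 7.4/aFGF, 31.8 ± 24.7 in control, 21.7 ± 1.36 in 7.4/bFGF, 20.0 ± 7.24 in 6.4/aFGF, 18.1 ± 7.96 in 6.4/bFGF, 15.1 ± 4.37 in 8.4/aFGF and 13.7 ± 5.53 in 8.4/bFGF. Il2rg, the common gamma chain of several cytokine receptors, which most leukocytes carry, ranged only 3.24-fold. It was at 228, 124 and 119 CPM in 7.4/aFGF and at 75.8, 144 and 70.4 CPM in control, and its means in the other 5 groups lay between 86.9 ± 11.7 CPM (8.4/bFGF) and 112 ± 20.4 CPM (8.4/aFGF). Thus Il2rg was 13.7 times Il2rb in FPKM in the median library, but 3.76 times in 7.4/aFGF replicate 1, the lowest ratio of the 21.

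The T cell receptor genes followed the same libraries. Cd3e, the epsilon chain of CD3, was at 11.7, 1.40 and 1.05 CPM in 7.4/aFGF and at 0.369, 3.83 and 1.13 CPM in control, and the other 15 libraries did not exceed 2.33 CPM. Its means were 4.72 ± 6.06 CPM in 7.4/aFGF, 1.78 ± 1.82 in control, 1.24 ± 0.658 in 6.4/aFGF, 1.16 ± 1.03 in 8.4/bFGF, 1.11 ± 0.505 in 6.4/bFGF, 0.768 ± 0.140 in 8.4/aFGF and 0.696 ± 0.242 in 7.4/bFGF. Cd3g, the gamma chain of CD3, read 19.7 CPM in 7.4/aFGF replicate 1 and 9.70 CPM in control replicate 2. Its group means were 8.24 ± 9.90 CPM in 7.4/aFGF, 5.43 ± 3.79 in control, 3.12 ± 1.62 in 8.4/bFGF, 3.07 ± 1.55 in 6.4/aFGF, 2.79 ± 1.21 in 6.4/bFGF, 2.67 ± 0.437 in 8.4/aFGF and 1.73 ± 0.677 in 7.4/bFGF.

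The 2 coreceptors differed in their range. Cd8a, of cytotoxic T cells, was at 7.93 CPM in 7.4/aFGF replicate 1, 3.08 CPM in control replicate 2 and 0.439 to 1.35 CPM in the rest. Its means were 3.12 ± 4.17 CPM in 7.4/aFGF and 1.53 ± 1.35 CPM in control, and 0.797 ± 0.201 (7.4/bFGF) to 0.983 ± 0.321 CPM (6.4/bFGF) in the other 5 groups. Cd4, of helper T cells and some dendritic cells, ranged 3.91-fold. It was at 35.7, 34.3 and 17.2 CPM in 7.4/aFGF, so 7.4/aFGF replicates 1 and 2 were alike for it, and at 15.3, 15.4 and 9.14 CPM in control. The Cd4 means were 29.1 ± 10.3 CPM in 7.4/aFGF, 21.2 ± 7.72 in 8.4/bFGF, 18.9 ± 5.27 in 8.4/aFGF, 17.3 ± 3.44 in 6.4/aFGF, 15.8 ± 6.80 in 6.4/bFGF, 14.5 ± 2.42 in 7.4/bFGF and 13.3 ± 3.59 in control. In FPKM, Cd4 was 1.85 times Cd3g in the median library, but 0.468 times in control replicate 2 and 0.536 times in 7.4/aFGF replicate 1. Cd8a over Cd3g was 0.132 in 7.4/aFGF replicate 1, near the median of 0.113.

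Nkg7, a granule protein of NK cells and cytotoxic T cells, was at 24.1 CPM in 7.4/aFGF replicate 1, 11.6 CPM in control replicate 2 and 1.41 to 5.79 CPM elsewhere. By group it averaged 10.7 ± 11.6 CPM in 7.4/aFGF, 6.91 ± 4.03 in control, 4.39 ± 0.522 in 7.4/bFGF, 4.11 ± 1.5 in 6.4/bFGF, 3.45 ± 0.701 in 8.4/aFGF, 3.12 ± 1.48 in 6.4/aFGF and 2.81 ± 0.409 in 8.4/bFGF. Gzmb encodes granzyme B, the protease that cytotoxic cells deliver to their targets. It was at 59.0, 7.32 and 10.3 CPM in 7.4/aFGF and at 6.70, 41.6 and 5.53 CPM in control, and no other library was above 17.4 CPM. The Gzmb means were 25.5 ± 29.0 CPM in 7.4/aFGF, 17.9 ± 20.5 in control, and 5.88 ± 2.02 (8.4/bFGF) to 11.3 ± 4.53 CPM (7.4/bFGF) in the other 5 groups. The ratio of Gzmb to Nkg7 in FPKM was 1.32 in 7.4/aFGF replicate 1, close to the median of 1.29.

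**Figure D2:**
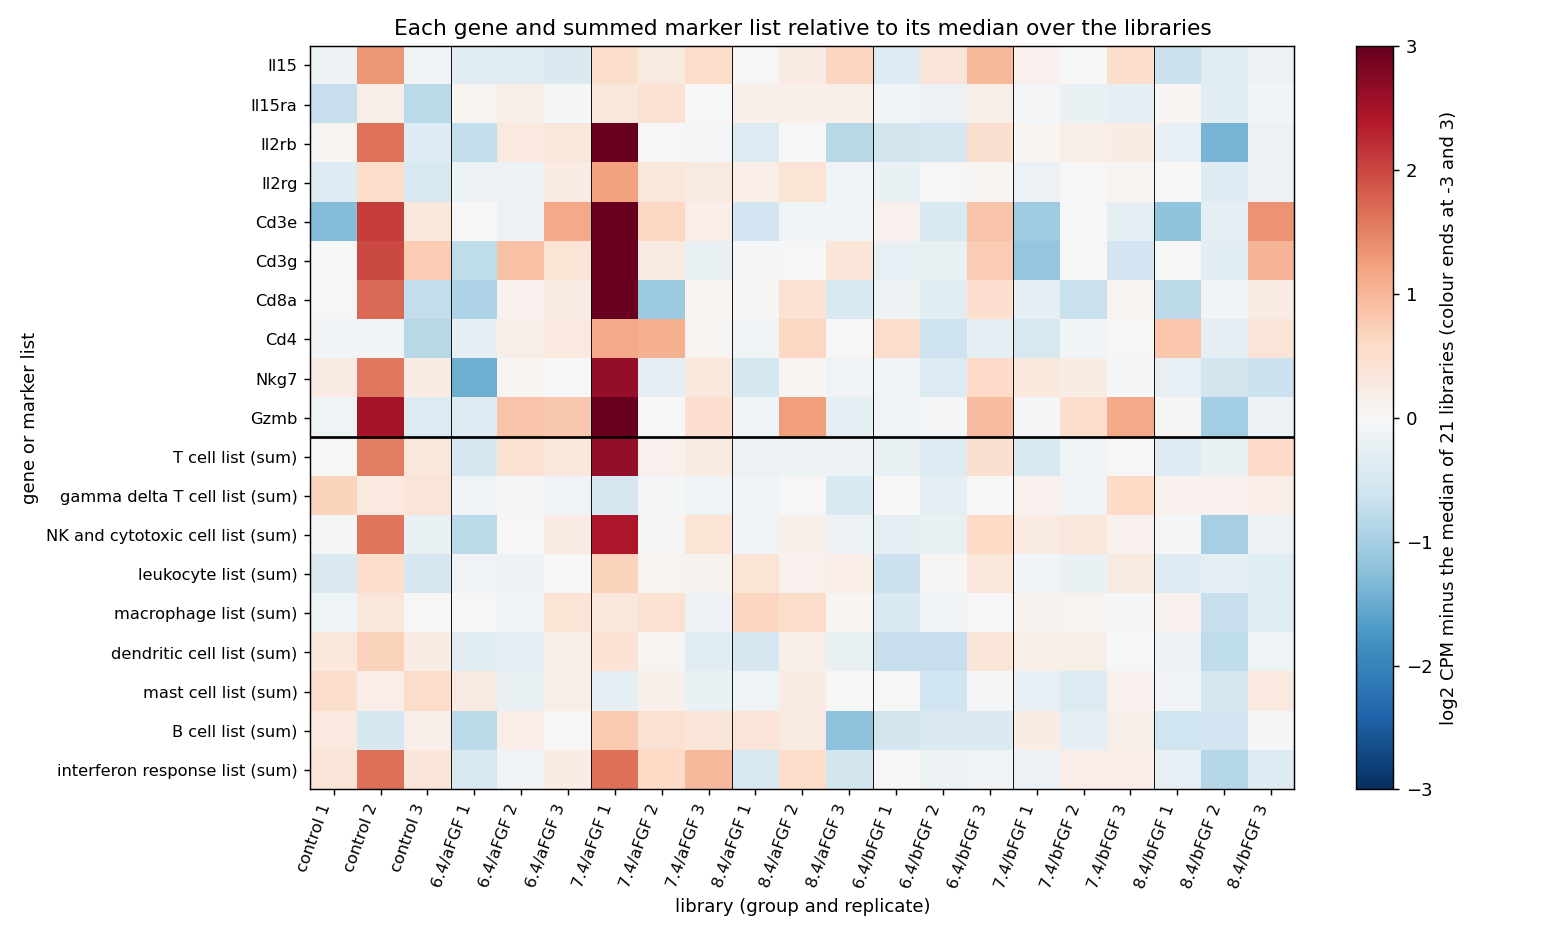
log2 CPM of the 10 genes (above the line) and of summed marker lists (below it) in each of the 21 libraries, minus the median over the libraries, with red above and blue below it. 7.4/aFGF replicate 1 and control replicate 2 are red for most T and NK genes, for the T cell, NK and interferon lists, and not for the gamma delta T cell list in 7.4/aFGF replicate 1.

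Lists of related genes showed how far the 2 libraries differed. The T cell list (21 of 24 genes found) summed to 346 CPM in 7.4/aFGF replicate 1, 161 CPM in control replicate 2 and 38.5 to 83.0 CPM in the other libraries, and 19 of its 21 genes were highest in 7.4/aFGF replicate 1. The NK and cytotoxic list (25 genes) summed to 519 CPM there, 296 CPM in control replicate 2 and 48.8 to 148 CPM in the rest, and 18 of 25 genes were highest there. Relative to the median of the other 20 libraries, 7.4/aFGF replicate 1 was 17.4-fold higher for Tbx21 and 11.4-fold for Eomes, which encode transcription factors of cytotoxic lymphocytes. The CD3 chain gene Cd3d was 9.46-fold higher there, the NK receptor gene Ncr1 5.05-fold, and the chemokine gene Ccl5 13.3-fold. Bcl11b, a T lineage transcription factor, was 1.07-fold. By contrast the gamma delta T cell list (6 of 10 genes found) summed to 19.1 CPM in 7.4/aFGF replicate 1, the lowest of the 21, against up to 43.0 CPM.

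The summed lists of other leukocytes differed by smaller ratios. In 7.4/aFGF replicate 1 the leukocyte list (4 genes) was at 1.67 times and the macrophage list (10 genes) at 1.27 times the median of the other libraries, and in control replicate 2 at 1.49 and 1.26 times. The dendritic cell list (8 genes) was at 1.42 and 1.69 times and the plasmacytoid dendritic cell list (4 genes) at 1.33 and 1.5 times in the same 2 libraries. Single markers of these lists differed more, but not in one direction. In 7.4/aFGF replicate 1 the dendritic cell genes Xcr1 and Clec9a were at 5.00 and 3.34 times the median of the other libraries. Both were low, with medians of 0.639 and 1.21 CPM over the 21 libraries. The plasmacytoid dendritic cell genes Siglech and Ccr9 were at 4.52 and 4.31 times. Cd209a and Tcf4 of the same lists lay below that median, at 0.611 and 0.760 times. Their other genes lay between 1.22 (Zbtb46) and 2.24 times (Cd207). B cell genes (6) summed to 6.36 CPM in 7.4/aFGF replicate 1, the highest of the 21, at 1.77 times the median of the others. The next highest was 7.4/aFGF replicate 2 (5.02 CPM), and control replicate 2 was at 2.56 CPM (0.662 times). The lymph node stroma list (5 genes) was at 0.782 times in 7.4/aFGF replicate 1 and 0.921 times in control replicate 2. Its genes did not go in one direction, and Cxcl13 alone made 44.0 of the 69.5 CPM in 7.4/aFGF replicate 1. There Ccl21a, Cxcl13 and Glycam1 were at 0.898, 0.649 and 0.623 times, but Ccl19 and Madcam1 at 2.16 and 2.44 times. The latter were low, with medians of 1.32 and 0.324 CPM. Ccl19 was highest in control replicate 2 (4.78 CPM), where Madcam1 was at 0.0288 CPM. The interferon response list (15 of 16 genes found) was at 3298 CPM in 7.4/aFGF replicate 1 and 3323 CPM in control replicate 2, and at 584 to 2056 CPM elsewhere. The part that any of these lists has in the results on the 10 genes was not tested.

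The comparisons were fitted over all genes with edgeR's quasi-likelihood test, and calls needed both an adjusted p (Benjamini-Hochberg, over all genes tested) below 0.05 and more than 0.58 of log2 change. None of the 10 genes was called in any of the 10 comparisons. The smallest adjusted p of any of them was 0.15. Counts at an unadjusted p under 0.05 and with DESeq2 are given beside those of all genes, and these genes are not replicates of one another.

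The first comparisons asked what an acidic or alkaline gel changed when the factor was aFGF. Both are set against the same 7.4/aFGF libraries. Il15 was lower in 6.4/aFGF than in 7.4/aFGF, by a log2 fold change of -0.84 ± 0.15 (SE), with all 3 libraries below all 3 others, but the adjusted p of edgeR's quasi-likelihood test was 0.832. DESeq2 called it at an adjusted p of 0.00504, while over all 14 alternatives to the fit its adjusted p ran from 0.00504 to 1. Il2rg was at -0.69 ± 0.28 (edgeR adjusted p = 0.832), again without overlap. These were the 2 of the 10 genes at an unadjusted p under 0.05, against 4.99% of the 15019 genes tested, and 2 of 10 had groups that did not overlap, against 11% of genes. No gene at all was called by edgeR (0%), and DESeq2 called 0.112% of genes, Il15 among them, but gave no p for Il2rb and Cd3e. All 10 genes had negative fold changes, with a median of -1.34 against 0.02 over all genes.

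Most of that shift came with 1 library. Without 7.4/aFGF replicate 1, 5 of the 10 were higher and 5 lower, with a median of -0.06, 1 was at an unadjusted p under 0.05 (2.48% of genes were), and Il2rb, Cd3e, Cd3g, Cd8a and Gzmb changed sign. Il15 stayed at -0.80 ± 0.17 (edgeR adjusted p = 1), and Il2rg was at -0.31 ± 0.17 (edgeR adjusted p = 1). With all libraries, 20 of 20 T cell genes and 22 of 22 NK and cytotoxic genes that were tested had lower fitted values in 6.4/aFGF, and 2 and 3 of them were at an unadjusted p under 0.05. Without that library 12 of 20 and 14 of 22 were lower. The interferon response list summed to 751 to 1220 CPM in 6.4/aFGF and 1586 to 3298 CPM in 7.4/aFGF, so its groups did not overlap. All 15 of its genes had lower fitted values in 6.4/aFGF, 11 of them at an unadjusted p under 0.05 and none called, and without 7.4/aFGF replicate 1 all 15 stayed lower, 6 at that level. Whether this has a part in the difference in Il15 was not tested.

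At pH 8.4 with aFGF, Il15 was close to its pH 7.4 level, at a log2 fold change of -0.13 ± 0.20 (edgeR adjusted p = 1). All 10 fitted fold changes were again negative, with a median of -1.48 against about 0 over all genes. Il2rb was at -2.17 ± 0.89 and Cd3e at -2.61 ± 0.98, both with an edgeR adjusted p of 1, and the Cd3e groups did not overlap. The 2 genes at an unadjusted p under 0.05 compare with 3.01% of genes, and the 1 without overlap with 8.3%. edgeR called 0% and DESeq2 0.0614% of genes, none of the 8 for which it gave a p, and it gave none for Il2rb and Cd3e. Without 7.4/aFGF replicate 1, Il2rb was at -0.36 ± 0.26 and Cd3e at -0.67 ± 0.43, 3 of the 10 had positive values, and none was at an unadjusted p under 0.05, against 1.85% of genes. The interferon response genes had lower fitted values in 8.4/aFGF for 15 of 15, 5 at an unadjusted p under 0.05. With all libraries edgeR called none of them and DESeq2 2. Without that library 15 of 15 were lower, with 4 at that level.

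The same pH contrasts with bFGF did not repeat this order. Between 6.4/bFGF and 7.4/bFGF, Il15 was at a log2 fold change of 0.21 ± 0.35 (edgeR adjusted p = 0.869). Among the 10, 7 were higher and 3 lower, with a median of 0.15, and none was at an unadjusted p under 0.05, against 8.89% of genes. None of the 10 was without overlap, against 15.2% of genes, and edgeR called 0% and DESeq2 0.632% of genes, none of them among the 10.

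Between 8.4/bFGF and 7.4/bFGF, Il15 was at -0.60 ± 0.20 and Nkg7 at -0.63 ± 0.22, each with an edgeR adjusted p of 0.861 and with groups that did not overlap. They were the 2 genes at an unadjusted p under 0.05, against 5.72% of genes. Of the 10, 3 had groups without overlap, the third being Il2rb, which was at 16.5, 7.36 and 17.3 CPM against 20.2, 21.9 and 22.9 CPM, and 11.7% of genes had such groups. Fitted values were higher for 5 and lower for 5, and 0% of genes were called by edgeR and 0.15% by DESeq2, none of the 10. NK and cytotoxic genes lay lower for 21 of 22 tested, 2 of them at an unadjusted p under 0.05, while T cell genes lay higher for 15 of 20, with none at that level. All 15 interferon response genes had lower fitted values, 5 at an unadjusted p under 0.05, and edgeR called none of them and DESeq2 1.

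A second set of comparisons held the pH fixed and asked how the 2 factors differed. At pH 6.4, Il15 was lower with aFGF than with bFGF by a log2 fold change of -0.80 ± 0.33 (edgeR adjusted p = 0.6), with overlapping libraries, and by -0.44 without 6.4/bFGF replicate 3. It was the only one of the 10 at an unadjusted p under 0.05, against 8.16% of genes. None of the 10 was without overlap, against 15% of genes, and edgeR called 0% and DESeq2 0.678% of genes.

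At pH 7.4 all 10 genes had higher fitted values with aFGF, at a median log2 fold change of 1.24 against -0.01 over all genes, and 5 of 10 were at an unadjusted p under 0.05, against 13% of genes. Those were Cd4 (1.01 ± 0.31, edgeR adjusted p = 0.351), Il15ra (0.43 ± 0.14, adjusted p = 0.361), Cd3e (2.77 ± 1.03, adjusted p = 0.372), Il2rg (0.71 ± 0.27, adjusted p = 0.377) and Cd3g (2.26 ± 0.93, adjusted p = 0.383). The first 4 had groups without overlap, against 20.8% of genes. Il15 itself was at 0.23 ± 0.19 (edgeR adjusted p = 0.586). edgeR called 0% of genes and DESeq2 1.48%, none of the 8 for which it gave a p, and it gave none for Il2rb and Cd3e. When 7.4/aFGF replicate 1 was left out, 6 of the 10 were higher, the median was 0.26, and Il2rg alone stayed at an unadjusted p under 0.05, at 0.33 ± 0.11, against 8.73% of genes. Cd4 was then at 0.83 ± 0.34, Il15ra at 0.39 ± 0.16, Cd3e at 0.81 ± 0.47 and Cd3g at 0.54 ± 0.43. Of the T cell list, 20 of 20 genes had higher fitted values with all libraries and 18 of 20 without that one, and of the NK and cytotoxic list 21 of 24 and 11 of 24. The interferon response list was also higher with aFGF, for 15 of 15 fitted values both with and without that library, at an unadjusted p under 0.05 for 9 and then for 4, and DESeq2 called 2 with all libraries. All 8 keratinocyte genes had higher fitted values with aFGF in both fits, 1 and then 2 at that level. Their sum in 7.4/bFGF was 3360, 3332 and 1748 CPM, against 2423 to 5060 CPM in 7.4/aFGF. The 1748 CPM of 7.4/bFGF replicate 3 was the lowest of the 21, and this library also had the lowest skeletal muscle sum (278 CPM). Keratinocyte values without it are not given here. The part of these lists in the values of the 10 genes was not tested.

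At pH 8.4, Il15 was higher with aFGF than with bFGF, at a log2 fold change of 0.73 ± 0.21 and without overlap between groups (edgeR adjusted p = 0.15, DESeq2 adjusted p = 0.052). Over its 14 alternatives the adjusted p ran from 0.052 to 0.385. Of the 10, 7 were higher and 3 lower, 1 at an unadjusted p under 0.05, against 21.1% of genes, and 2 without overlap, against 27.5%. The other was Il15ra, at 49.2, 48.7 and 48.7 CPM against 45.9, 35.3 and 41.9 CPM. edgeR called 0.00665% and DESeq2 5.24% of genes, none of the 10. In the list of IL-15 receptor signalling and targets, 9 of 20 were higher and 1 lower at an unadjusted p under 0.05, and DESeq2 called 5. Named by smallest p, Stat3 was at 0.62 ± 0.12 (edgeR adjusted p = 0.102), Stat5a at 0.95 ± 0.20 (adjusted p = 0.105), Pik3cd at 0.53 ± 0.12 (adjusted p = 0.117) and Mcl1, a survival factor, at 0.74 ± 0.20 (adjusted p = 0.134). All of these serve many other receptors, and the leukocyte list was also higher in 8.4/aFGF for 4 of 4 genes and the macrophage list for 10 of 10, at an unadjusted p under 0.05 for 4 and 3 of them. Their part in this difference was not tested.

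Whether pH 6.4 against 7.4 acted differently with aFGF and with bFGF was tested as an interaction. The Il15 term was -1.05 ± 0.40 on the log2 scale (edgeR adjusted p = 0.805), and Il15 was the only one of the 10 at an unadjusted p under 0.05, against 6.09% of genes. All 10 terms were negative, with a median of -1.28, and 7 were when 7.4/aFGF replicate 1 was left out, when Il15 was at -1.01 ± 0.44. Without 6.4/bFGF replicate 3 the Il15 term was -0.65. edgeR called 0% and DESeq2 0.153% of genes, none of them among the 10, but DESeq2 gave no p for Il2rb.

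**Figure D3:**
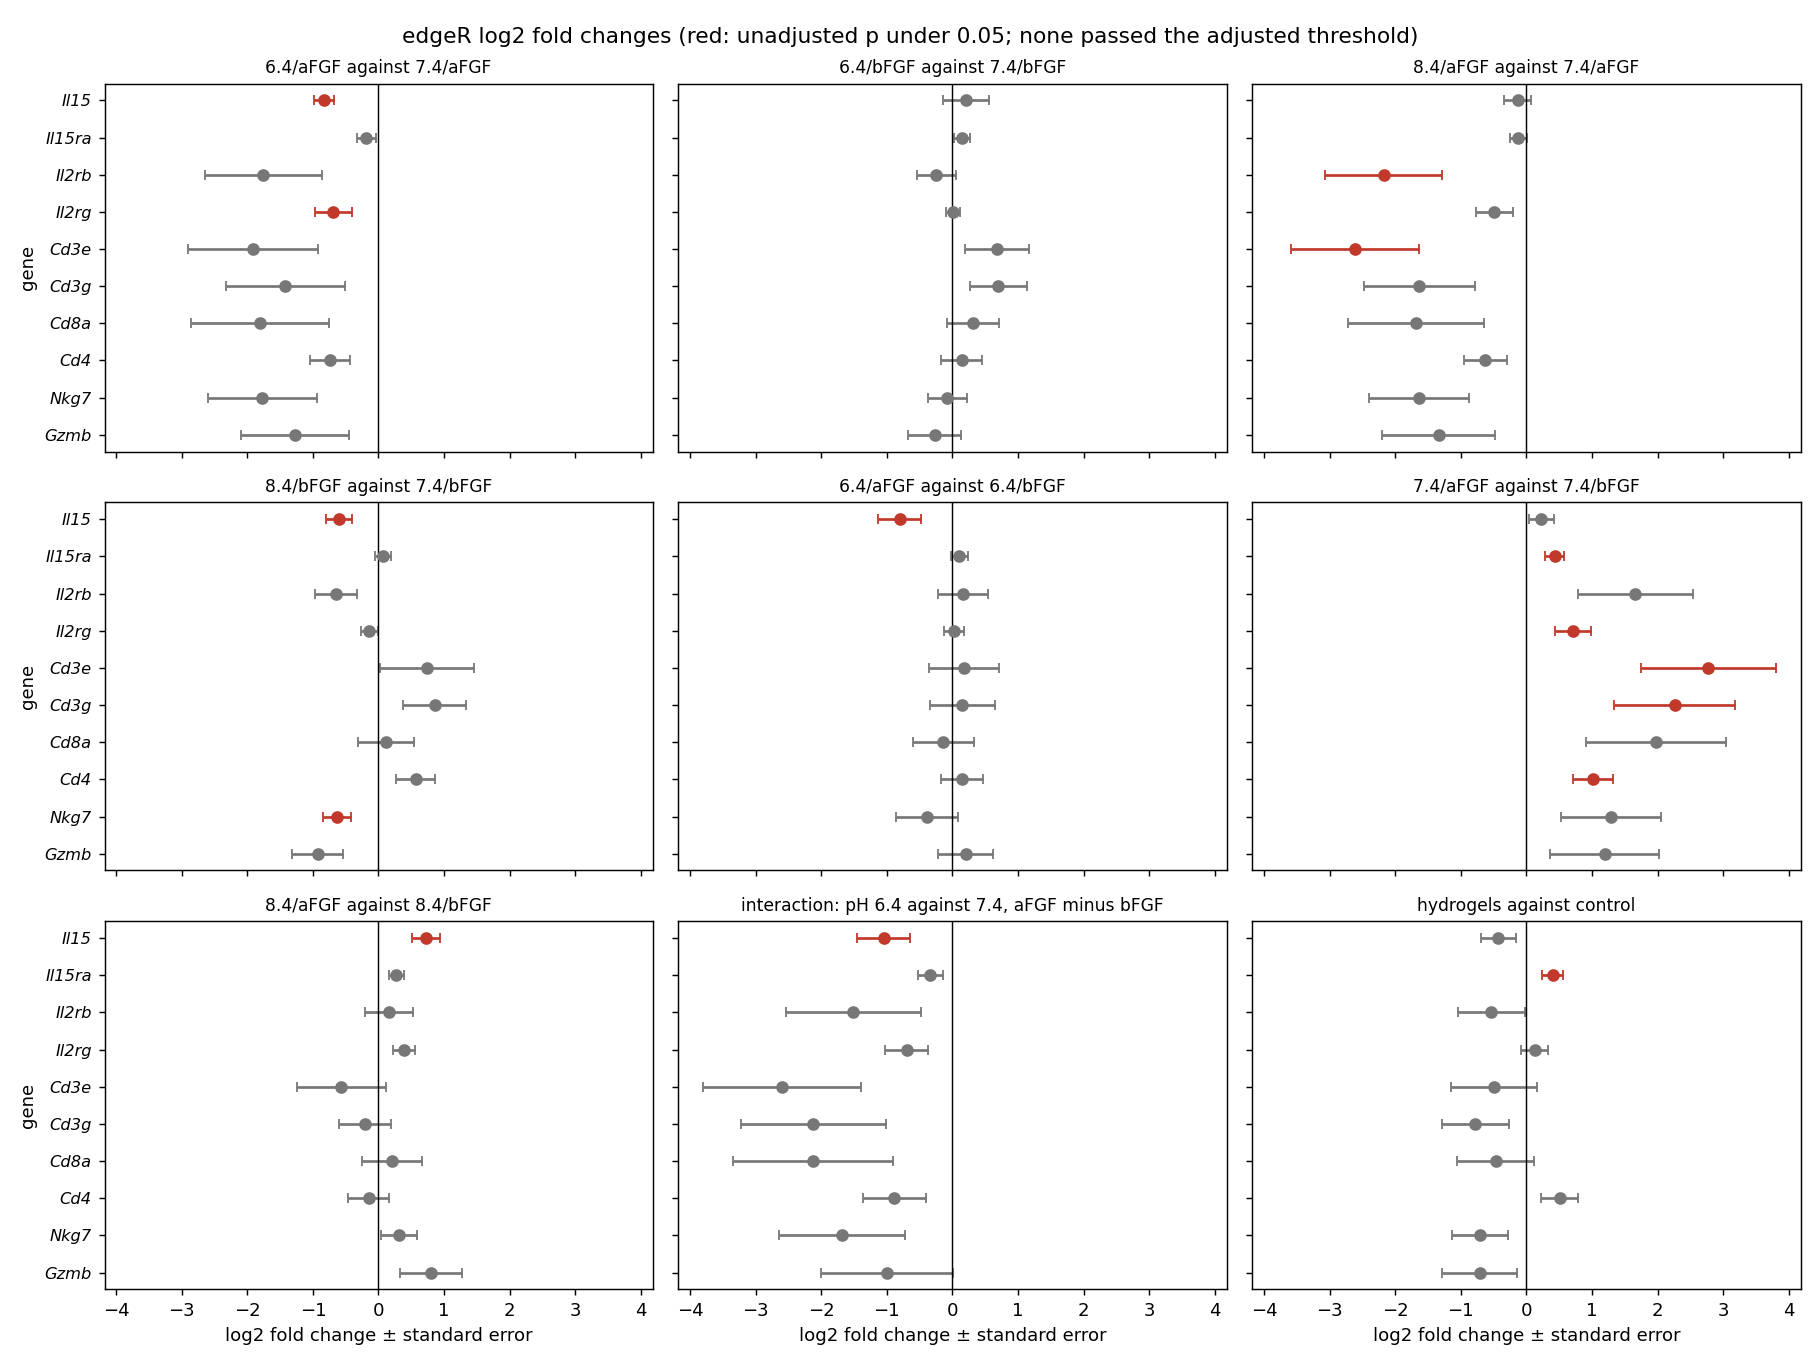
edgeR log2 fold change (x axis) with its standard error (bars) for each of the 10 genes in 9 comparisons, in red at an unadjusted p under 0.05. The values lie to the left of 0 for all 10 genes in both aFGF contrasts against pH 7.4 and to the right for all 10 in 7.4/aFGF against 7.4/bFGF, and none passed the adjusted threshold. These contrasts all share the 7.4/aFGF libraries. Without 7.4/aFGF replicate 1, not drawn here, 5 of 10 were lower at pH 6.4 and 7 at pH 8.4. Against 7.4/bFGF 6 of 10 were then higher.

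All hydrogel groups together were set against the wounds without scaffold or factor, as the mean of 6 groups minus control. Il15ra was higher by 0.40 ± 0.16 on the log2 scale (edgeR adjusted p = 0.223), and it was the only one of the 10 at an unadjusted p under 0.05, against 16.7% of genes. Il15 was at -0.42 ± 0.26 (edgeR adjusted p = 0.421). Among all 10, 3 were higher and 7 lower. None of the 10 separated the groups, against 0.582% of genes, and edgeR called 0.00632% and DESeq2 0.914% of genes, none of the 10. All 21 T cell genes and 24 of 25 NK and cytotoxic genes had lower fitted values in the hydrogel groups, 1 and 5 of them at an unadjusted p under 0.05 and none called by edgeR. The gene of this list with the smallest p was Ifng, the interferon of NK and T cells, at -3.65 ± 0.84 (edgeR adjusted p = 0.103), and DESeq2 called it. Ifng was near the floor, with a lowest value of 0 and a median of 0.111 CPM over the 21 libraries. It was highest in control replicate 2 (4.52 CPM) and next in 7.4/aFGF replicate 1 (3.05 CPM), so its fold change leans on 1 control library. All 15 interferon response genes had lower fitted values in the hydrogel groups as well, 12 at an unadjusted p under 0.05. Of these 15, edgeR called none and DESeq2 3, and their part in the Il15 value was not tested.

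Control replicate 2 decided much of this. Without it Il15ra was called, at 0.77 ± 0.13 (edgeR adjusted p = 0.00426), when 7.4% of the genes tested were called, and its adjusted p over 29 alternatives ran from 0.00426 to 0.742. Il15 turned to 0.22 ± 0.24 (edgeR adjusted p = 0.596), 8 of the 10 were then higher, and 14 of 21 T cell and 15 of 25 NK and cytotoxic genes were. Of the T cell list edgeR called 0 genes and of the NK and cytotoxic list 1. Of the 15 interferon response genes 14 then had lower values, 2 at an unadjusted p under 0.05, with a median log2 fold change of -0.38 in place of -0.83. With 7.4/aFGF replicate 1 left out in its place, 4 of the 10 were at an unadjusted p under 0.05, against 17.1% of genes. They were Nkg7 at -0.95 ± 0.29 (edgeR adjusted p = 0.144), Cd3g at -1.07 ± 0.37 (edgeR adjusted p = 0.179), Il2rb at -0.84 ± 0.33 (edgeR adjusted p = 0.219) and, higher, Il15ra at 0.39 ± 0.16 (edgeR adjusted p = 0.232), and 21 of 21 T cell genes were lower, 8 at an unadjusted p under 0.05. Of these T cell genes edgeR called 1, when it called 9 of the 16059 genes tested. Without both libraries Il15ra was at 0.76 ± 0.13 (edgeR adjusted p = 0.00539), Il15 at 0.21 ± 0.25, Il2rb at -0.0025 ± 0.32, and 7 of 21 T cell genes were higher. In that fit edgeR called 1197 of the 16043 genes tested. Among them were Il15ra, 1 of the 21 T cell genes and 1 of 24 NK and cytotoxic genes.

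A test for any difference among the 7 groups called 0.114% of genes with edgeR and none of the 10. Il2rb (edgeR adjusted p = 0.221) and Nkg7 (edgeR adjusted p = 0.229) were the 2 at an unadjusted p under 0.05, against 19.3% of genes, and DESeq2 called both, at adjusted p values of 0.0249 and 0.0473, among 10.8% of genes. Il15 had an edgeR adjusted p of 0.306. When control replicate 2 was left out, Il15ra was called (edgeR adjusted p = 0.0205) among 5.38% of genes.

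The other cytokines and receptors that use the common gamma chain made a list of 10 genes. Il2, Il4, Il9 and Il21 did not exceed 0.686 CPM in any library and Il7 lay between 0.730 and 2.00 CPM, Il9r reached 0.748 CPM, whereas Il4ra was at 327 to 1281 CPM, Il21r at 10.9 to 42.6 CPM and Il7r at 6.90 to 56.0 CPM. Il7r and Il2ra, receptors of T cells among others, were highest in control replicate 2 (56.0 and 24.6 CPM) and next highest in 7.4/aFGF replicate 1 (49.1 and 20.8 CPM). Of the feedback inhibitors of this signalling, Socs1 was at 93.8 CPM in control replicate 2 and 85.7 CPM in 7.4/aFGF replicate 1, against a median of 19.0 CPM, the 2 highest values. Cish was highest in control replicate 2 (59.4 CPM) and next in 8.4/aFGF replicate 1 (56.4 CPM), with 39.8 CPM in 7.4/aFGF replicate 1 against a median of 19.9 CPM, and Socs3 was highest in 8.4/aFGF replicate 1 (1202 CPM). No gene of this list or of the signalling list was called by edgeR in any of the 10 comparisons with all libraries. Without control replicate 2, 1 of 7 genes of this list and 4 of 20 signalling genes were called between hydrogels and control, where 7.4% of all genes were.

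Over the 21 libraries Il15 was set against the other 9 genes and the summed T cell and interferon response lists, which makes 11 relations in log2 CPM. The permutations shuffled all 21 libraries without regard to group, so their p-values mix differences between groups with those within them. By rank the closest was Il2rg, at Spearman's rho = 0.562 (permutation p = 0.00862, adjusted 0.0948) and Pearson's r = 0.506 (permutation p = 0.0199, adjusted 0.0544), with r = 0.38 without the 2 libraries farthest from its median. By Pearson's r it was Gzmb, at r = 0.571 (permutation p = 0.00688, adjusted 0.0448) and Spearman's rho = 0.403 (permutation p = 0.073, adjusted 0.241). Without the 2 libraries farthest from the median of Gzmb, r was 0.353. For Nkg7 r was 0.559 (permutation p = 0.00872, adjusted 0.0448) and rho 0.471 (permutation p = 0.032, adjusted 0.176), and r without the 2 farthest libraries was 0.411. The interferon response list had r = 0.536 (permutation p = 0.0122, adjusted 0.0448) and rho = 0.37 (permutation p = 0.0984, adjusted 0.241), with r = 0.26 without the 2 farthest. Each of these 4 values of r fell when 2 libraries were left out, and none of the 11 passed by rank after adjustment. Once each group's mean was subtracted, r was highest for Il15ra (0.589) and was 0.554 for Gzmb, 0.481 for Il2rg, 0.389 for Nkg7 and 0.396 for the interferon response list. These values were not tested. For Il15ra, r without that step was 0.312 (permutation p = 0.17, adjusted 0.187). Control replicate 2 stood high for both genes. Il15 was at 28.1 CPM there, against 10.1 and 10.4 CPM in the other control libraries. Il15ra was at 49.9 CPM, against 27.2 and 25.3 CPM. Without 7.4/aFGF replicate 1 and control replicate 2, rho of Il15 with Il15ra was 0.219, against 0.358 with all libraries. Cd4 had r = -0.105 with Il15 (permutation p = 0.651, adjusted 0.651) and rho = -0.139 (permutation p = 0.546, adjusted 0.546).

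**Figure D4:**
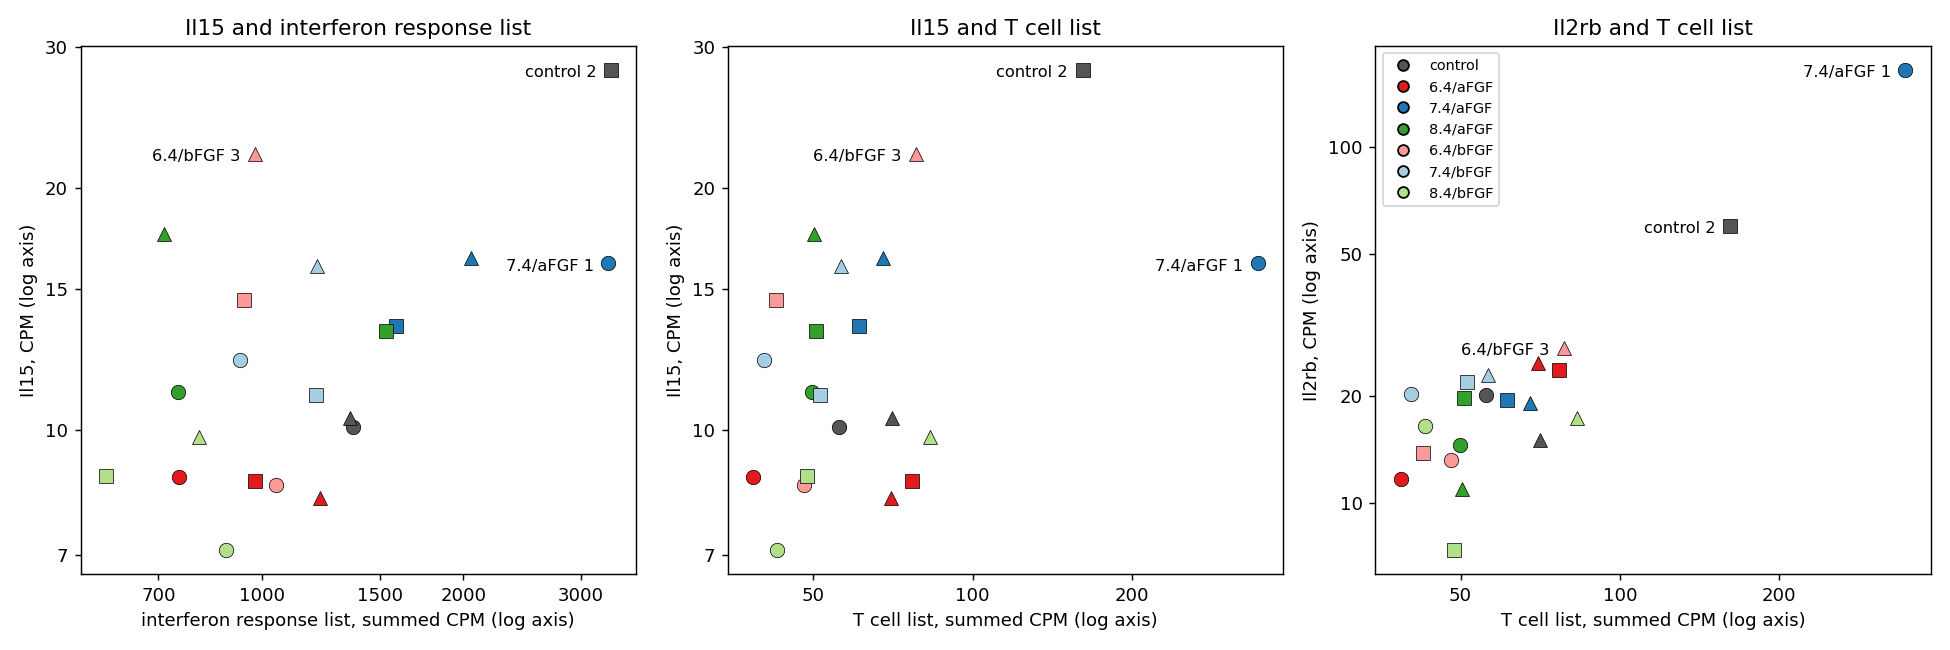
Il15 against the summed interferon response list (left) and the summed T cell list (middle), and Il2rb against the T cell list (right), in CPM on log axes, 1 point per library coloured by group with replicates as circle, square and triangle. 7.4/aFGF replicate 1 and control replicate 2 lie at the right end of each panel, and in Il15 control replicate 2 (28.1 CPM) and 6.4/bFGF replicate 3 (22.1 CPM) are the highest.

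As a description over the same libraries, the genes whose log2 CPM followed Il15 most closely by Spearman's rho among 15810 genes were Tifab (0.864), Fbxl14 (0.862), Themis2 (0.849), Trim12c (0.849) and Samd9l (0.842). None of the 10 listed genes was among them. For Cd3e they included Crybg1 (0.758), Paqr5 (0.749), Nudt17 (0.742) and Baiap2l1 (0.731). These 21 libraries share groups and depth, and rank orders of Cd3e rest on as few as 14 counts.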

How the data were processed

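RNA-seq was done on 21 wound libraries, 3 in each of 7 groups taken from the labels. The authors deposited raw counts per gene and FPKM values for each library. FPKM equalled the count divided by a fixed gene length and the library's total (spread of the recovered length at most 9.848e-05% over 14938 genes). The genome build in the submitters' processing notes is GRCm39. The aligner and the counting tool are not given in the sources used here, the kit marks strand (its use in counting is not stated), and the paper names no test for the sequencing.

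The counts went into edgeR 4.0.16 under R 4.3.3 (TMM, default filter by group, quasi-likelihood test), after the code was tested on simulated data. Alternatives were DESeq2 1.42.0, RLE scaling, no filter or at least 10 counts in every library, a replicate block, no fold threshold, limma 3.58.1 on log2(FPKM + 1), 1 fit over all 21 libraries, and libraries left out. Errors are SDs over 3 libraries or SEs of a fit. Replicates differed by more than counting noise (smallest chi-square per degree of freedom 17.2).

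The 10 genes and all lists were chosen with earlier results of these data known. The 10 genes were described in every group, and a fold change was given at an unadjusted p under 0.05 and always for Il15. Without a library, values were also given for genes named with all libraries. Of the lists, genes with the smallest p or defining markers were named. The 5 genes most like Il15 and Cd3e by rank were sought, and 1 of those for Cd3e is not reported here. Of 168 list genes 160 were matched, and the other 8 were not analysed here. No coordinates are given, since the RefSeq gene table used for names is of another build.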

Additional observations from a re-analysis of the deposited data

How the results depend on the processing

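None of the 10 genes was called by edgeR in any of the 10 comparisons, and this count stayed at 0 with RLE scaling, without the filter, with at least 10 counts in every library, with limma on log2(FPKM + 1) and with 1 fit over 21 libraries. DESeq2 called 1 gene between 6.4/aFGF and 7.4/aFGF (Il15) and 2 among the 7 groups (Il2rb and Nkg7). With 1 library left out in turn, 0 to 1 genes were called between hydrogels and control and 0 to 1 among the 7 groups, the 1 being Il15ra without control replicate 2. In that setting 7.4% and 5.38% of all genes tested were called. Leaving out 7.4/aFGF replicate 1 and control replicate 2 together, which was chosen after seeing the data, gave 1 in each (Il15ra). Over all genes, 1197 of the 16043 tested were then called between hydrogels and control, and the count among the 7 groups is given below.

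Fold changes that turned sign did so with a library left out. Between 6.4/aFGF and 7.4/aFGF the log2 fold change ran from -2.20 to 0.065 for Il2rb, -2.45 to 0.033 for Cd3e, -1.88 to 0.29 for Cd3g, -2.32 to 0.32 for Cd8a and -1.71 to 0.27 for Gzmb, each at its highest without 7.4/aFGF replicate 1. That of Il15 ran from -0.17 to 0.48 between 6.4/bFGF and 7.4/bFGF (lowest without 6.4/bFGF replicate 3), from -0.31 to 0.0084 between 8.4/aFGF and 7.4/aFGF (highest without 8.4/aFGF replicate 1), and from -0.68 to 0.22 between hydrogels and control (highest without control replicate 2; 0.21 without both libraries). Beyond the libraries left out, the cause was not tested.

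Same-numbered libraries of different groups did not deviate together on average (mean correlation -0.0163 over 63 pairs, from -0.638 to 0.423). No common effect of the number was seen, but with deviations from means of 3 libraries this cannot exclude that some libraries were paired. With a replicate block, 0 of the 10 were called in each comparison. Over all genes the count called went from 1 to 1189 between hydrogels and control and from 18 to 864 among the 7 groups without control replicate 2, from 0 to 278 between 6.4/bFGF and 7.4/bFGF without 7.4/bFGF replicate 3, and from 1 to 172 between 8.4/aFGF and 8.4/bFGF without 8.4/aFGF replicate 3. Between hydrogels and control 5 genes were called with at least 10 counts in every library, 2 with the block, 2 without a fold threshold, 0 without the 3 libraries in which earlier results had found genes of other tissues (7.4/aFGF replicate 3, 8.4/aFGF replicate 2 and 8.4/bFGF replicate 2) and 1197 without both libraries. Among the 7 groups these were 10 with the block, 3 without the 3 libraries and 451 without both. The fit over 21 libraries called 12 genes in place of 0 between the factors at pH 7.4 and 10 in place of 1 at pH 8.4. In the order of the report, DESeq2 called 20, 11, 113, 27, 121, 264, 949, 28, 171 and 2030 genes where edgeR called 0, 0, 0, 0, 0, 0, 1, 0, 1 and 18. Cd3e (from 14 counts) and Cd8a (from 16 counts) are limited by depth.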
